A study of Triticum aestivum with 15 samples.

Results

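The wheat line T183 was compared with the cultivar Chris on 6 of the 15 arrays of the study, all 3 arrays of each line, as the labels name them. T183 is alloplasmic: it holds the nucleus of Triticum aestivum cv. Chris in the cytoplasm of Aegilops uniaristata, a wild relative of wheat, and Chris is its euplasmic control, with its own wheat cytoplasm. Both lines were sampled at 14 days as leaf 2, at the higher of the light intensities used, and each array carried RNA of plants bulked from a pot. The other arrays carried T195 (Ae. tauschii cytoplasm in Chris), TH237 (Hordeum chilense cytoplasm in the wheat accession T20) and T20. T183 was made by repeated backcrossing to Chris, so that remnants of other nuclear DNA in this line were not measured here, and a single such line stood for the cytoplasm.

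The array was the Affymetrix Wheat Genome Array, whose probes were designed on wheat sequences, and how well they match transcripts of the Ae. uniaristata organelles was not tested. Each value is a signal, the brightness of a probe set on a linear scale, and all levels and changes are on the log2 scale after addition of 16. Controls aside, the array has 61179 probe sets, and 27998 of these lay above the 55th percentile of their array on at least 3 of the 6 arrays and were tested. A call needs a Benjamini-Hochberg adjusted p of at most 0.05 in limma and a change of at least 2-fold. Changes are given as T183 minus Chris ± SE of the fit.

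A plant cell carries genes in the nucleus, the plastid and the mitochondrion, and a cytoplasm substitution exchanges the organelle genomes while the nuclear genome is kept. Organelle genes encode core parts of photosynthesis, respiration and the organelle ribosomes, and most other organelle proteins come from nuclear genes. Many organelle transcripts hold group II introns, whose removal needs maturases encoded in the organelles or in the nucleus.

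In T183 leaves 2 maturase probe sets stood far above the wheat control and a small group of plastid-annotated probe sets far below it, while nearly all other probe sets stayed within 2-fold. Of the 27998 probe sets tested, 23 were called, which is 0.0821%, with 4 higher (0.0143%) and 19 lower (0.0679%). The median change over all tested was -0.01, with quartiles at -0.18 and 0.15. A change of 2-fold or more, whatever its p, was measured at 366 probe sets (103 higher and 263 lower), and 1754 had an unadjusted p under 0.05. No array of T183 overlapped one of Chris at any of the 23, as was also the case at 11.7% of all probe sets tested (5.41% higher and 6.33% lower in T183). Without Chris replicate 3 the count was 15, of which 14 were among the 23.

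**Figure D1:**
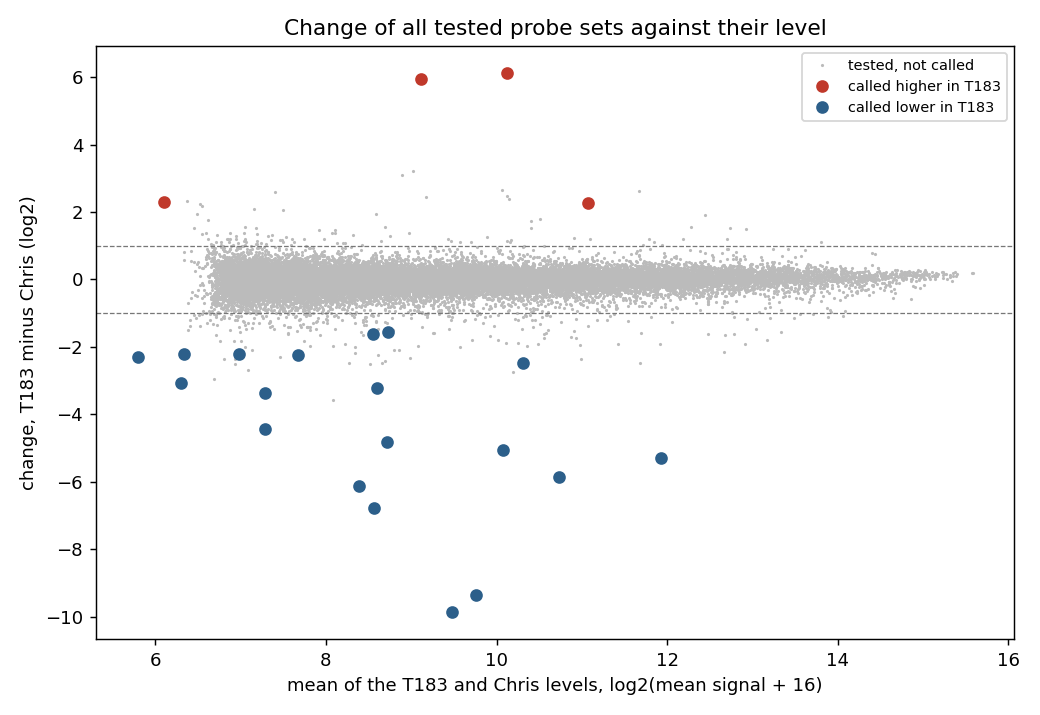
Change of each tested probe set (vertical axis, T183 minus Chris, log2) against its level (horizontal axis, mean of both lines on the log2 scale after 16 was added). Dashed lines mark 2-fold. The 4 probe sets called higher and the 19 called lower lie outside the band that holds nearly all of the 27998.

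Chris replicate 3 stood apart from the other arrays in the light-harvesting genes of the study's list of changed probe sets. That list holds 12 probe sets of the chlorophyll a-b binding proteins of photosystem II (LHCII) and the Rubisco small subunit. Probe sets of these genes outside the list were not examined. All 12 lay above the 55th percentile on Chris replicate 3, against 4 to 6 on the T183 arrays and 6 on each of the other Chris arrays. Their summed signal was 3627, 3557 and 4057 in T183, against 6307, 7721 and 20277 in Chris. As a check of the labelled tissue, the probe sets with rbcL, the Rubisco large subunit, as a synonym summed to between 73154 and 111425, and 1 to 3 of 25 seed genes lay above the percentile. The seed genes summed to between 5705 and 7487, of which a single probe set gave 5032 to 6988. Of 6 probe sets that the study's list describes as plantacyanin or male sterility genes, chosen as anther or pollen genes, 3 to 6 lay above the percentile on each array, and their part in the results was not tested. R-squared between arrays was 0.914 to 0.942 within T183, 0.926 to 0.938 within Chris and 0.885 to 0.948 between the lines. The fit has 4 residual degrees of freedom, and its p-values measure only the spread between these arrays. In leaf RNA, fewer cells of a type and less RNA per cell cannot be told apart.

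The largest rises were at both probe sets that the study's list of changed probe sets matches to matR, the maturase gene that wheat mitochondria carry within a nad1 intron, and also to nuclear maturase genes of Arabidopsis. Ta.24245.1.A1_at had signals of 10946, 6961 and 10146 in T183, against 114, 112 and 121 in Chris. All T183 arrays were thus far above all Chris arrays, whose signals lay just above their 55th percentile, and the change was 6.13 ± 0.20 (adjusted p 3.73e-05). TaAffx.57297.1.S1_at had 4284, 3469 and 4761 in T183, against a mean of 57.1 ± 30.9 in Chris (SD, n = 3). Its change was 5.94 ± 0.35 (adjusted p 0.00144), and because every Chris signal lay below the 55th percentile, the firmer statement is that it was at least 35.1-fold higher in T183.
Another maturase probe set, TaAffx.109850.1.A1_s_at, matches matK, the plastid maturase encoded within the trnK intron. It had signals of 314, 774 and 618 in T183, against 1089, 1157 and 1491 in Chris. It was lower on each T183 array than on any Chris array, but the change of -1.19 ± 0.32 was not called (adjusted p 0.710).

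The other rises called were at probe sets with no annotation in the tables used. TaAffx.81279.1.S1_at had signals of 3281, 4732 and 6369 in T183, against 963, 1001 and 897 in Chris, a change of 2.26 ± 0.25 (adjusted p 0.0351). TaAffx.44620.1.A1_at had 149, 136 and 124 in T183, against 21.2, 14.7 and 9.38 in Chris. The change of 2.31 ± 0.19 (adjusted p 0.00565) rests on dim Chris signals, and the bound is at least 1.29-fold higher in T183.

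The largest falls were at 2 probe sets of the cluster TaAffx.128795, a group of probe sets whose identifiers share their start. TaAffx.128795.10.S1_x_at is annotated as rps12, a protein of the small ribosomal subunit that both organelles encode. The study's list calls it mitochondrial in its description and places it in the chloroplast, and the study's text counts it as plastid-encoded. In the RefSeq annotation of the wheat mitochondrion an rps12 gene lies next to nad3. Its signals averaged 7.41 ± 5.48 in T183 (SD, n = 3), against 22476, 19058 and 23262 on the Chris arrays. The T183 signals lay below the 55th percentile on every array, so that the change of -9.87 ± 0.21 (adjusted p 2.50e-06) depends on the 16 added, and the bound is at least 184-fold lower in T183. TaAffx.128795.12.S1_x_at, annotated as the permease of an ABC transporter, the part of such a transporter that spans the membrane, had 14.7, 22.4 and 16.2 in T183, against 23135, 19485 and 23818 in Chris. Its change was -9.36 ± 0.17 (adjusted p 1.17e-06), at least 188-fold lower in T183. In Affymetrix identifiers the ending x_at marks probe sets with probes that may also bind other transcripts. The signals of the rps12 and permease probe sets were close to each other on each Chris array, and whether both read the same transcript was not tested.

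The 4 tested probe sets of the cluster TaAffx.128795 that were not called changed by between -1.97 and 1.78, with a median of -0.42. Of these 4, 2 were within 2-fold, beside 98.7% of all probe sets tested. TaAffx.128795.21.S1_s_at was at the lower end, with signals of 32.6, 91.1 and 212 in T183, against 177, 1201 and 289 in Chris, which overlapped (-1.97 ± 0.76, adjusted p 0.779). TaAffx.128795.16.S1_at was at the upper end, with signals of 1439, 2235 and 4592 in T183, against 443, 1054 and 741 in Chris, and did not pass the test (1.78 ± 0.46, adjusted p 0.676).

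Cytochrome b559 is a heme protein of the photosystem II reaction centre, and psbE encodes its alpha chain in the plastid. Both probe sets called in the cluster TaAffx.6196 are annotated as psbE and were lower in T183. TaAffx.6196.2.S1_s_at had 139, 335 and 161 in T183, against 11138, 10427 and 16467 in Chris, a change of -5.87 ± 0.33 (adjusted p 0.00133). TaAffx.6196.1.S1_at had 370, 1016 and 520 in T183, against 22409, 22336 and 25453 in Chris, a change of -5.29 ± 0.34 (adjusted p 0.00148). Every T183 signal of both was above the 55th percentile of its array and far below the lowest Chris signal. Of the remaining probe sets of the cluster, TaAffx.6196.3.S1_at had 221, 146 and 166 in T183, against 501, 808 and 502 in Chris, and was not called (-1.66 ± 0.24, adjusted p 0.138). TaAffx.6196.2.S1_at, which carries no annotation, overlapped between the lines (-0.28 ± 0.30, adjusted p 0.922).

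The plastid NAD(P)H dehydrogenase is a complex of the thylakoid that feeds electrons back into the plastoquinone pool. The probe set of its chain 5, TaAffx.128617.1.S1_x_at, had signals of 94.9, 229 and 204 in T183, against 6259, 5146 and 6798 in Chris, a change of -5.06 ± 0.31 (adjusted p 0.00148). A probe set of the same cluster, TaAffx.128617.4.S1_at, is annotated as rpl32, a protein of the large plastid ribosomal subunit. It had 93.9, 161 and 84.4 in T183, against 555, 1116 and 512 in Chris. Its arrays did not overlap, yet the change of -2.48 ± 0.34 was not called (adjusted p 0.115). The other tested probe sets of TaAffx.128617 lay between -0.79 and -0.04. Over all clusters that hold a called probe set, the 26 tested probe sets that were not called had a median change of -0.27. Of these 26, 19 stayed within 2-fold, beside 98.7% of all probe sets tested. Which part of a transcript each probe set covers was not analysed here.

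**Figure D2:**
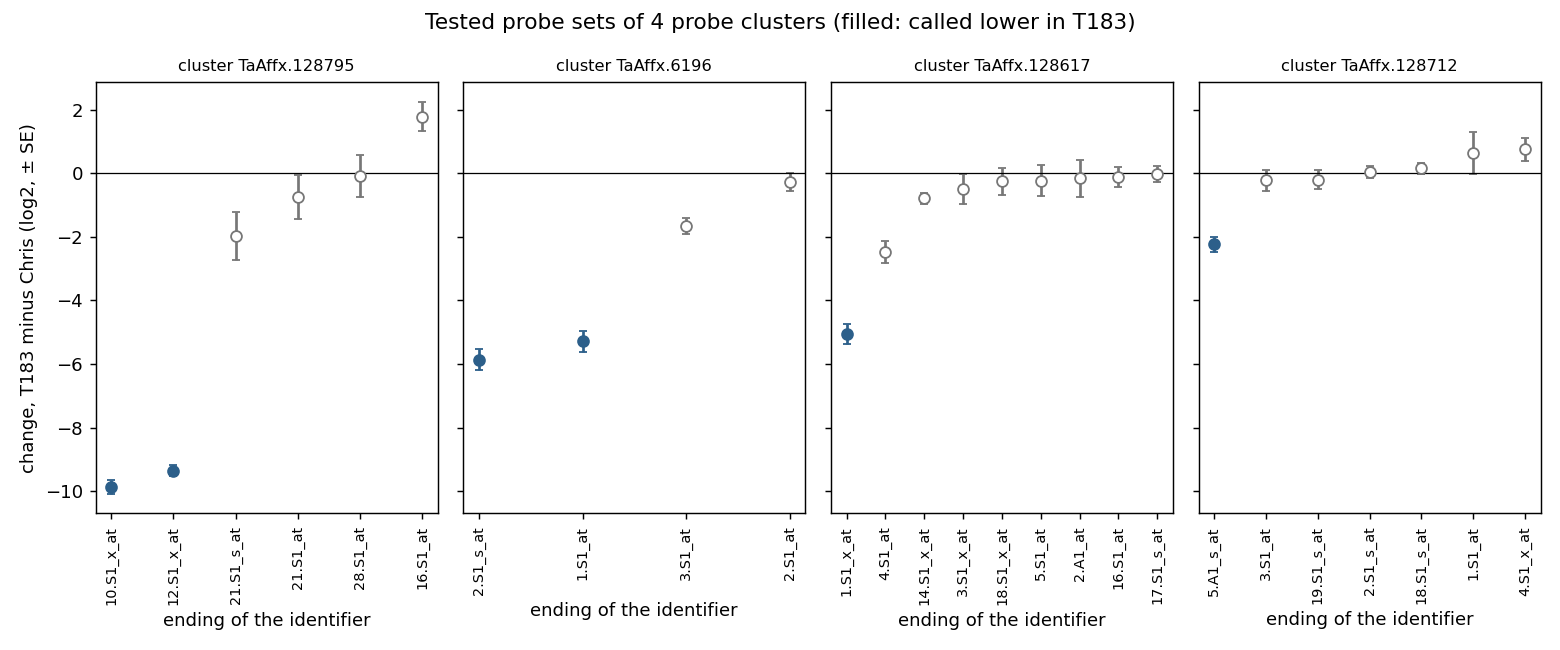
Change of every tested probe set in the 4 probe clusters TaAffx.128795, TaAffx.6196, TaAffx.128617 and TaAffx.128712 (vertical axis, T183 minus Chris, log2 with the standard error of the fit; horizontal axis, ending of the identifier). Filled points were called lower in T183, and within each cluster they lie below the open points, which were not called.

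Further falls called were at probe sets linked to RNA processing, regulation or no known function. Ta.6219.1.S1_at is described as a splicing factor with a PWI domain, a domain that binds nucleic acids. It had signals of 39.2, 12.5 and 10.7 in T183, against 4589, 3809 and 3131 in Chris. All T183 signals were below the 55th percentile, and the change of -6.78 ± 0.30 (adjusted p 0.000276) is bounded at least 32.5-fold lower in T183. The other 4 probe sets that the word search for PWI splicing factors found were tested and not called, with changes between -0.92 and -0.18.

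TaAffx.84549.1.S1_at matches ORF45a, an open reading frame of a pine, and the annotation does not name the pine genome that holds it. The study's list places the probe set in the mitochondrion, which was not tested here. It had 19.6, 10.9 and 37.0 in T183, against 4737, 2574 and 1423 in Chris, a change of -6.14 ± 0.44 (adjusted p 0.00295) and at least 22.2-fold lower. Ta.24306.1.S1_at is described as similar to SCARECROW, a transcription factor known from tissue patterning in Arabidopsis. It had 50.4, 55.6 and 76.3 in T183, against 1352, 3050 and 2428 in Chris, a change of -4.84 ± 0.31 (adjusted p 0.00148) and at least 18.5-fold lower.

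Smaller falls took in a further group with weak or no annotation. Ta.18686.1.A1_at, matched to a rice protein of unknown function, had 7.73, 38.5 and 6.75 in T183, against 388, 824 and 893 in Chris (-4.45 ± 0.43, adjusted p 0.0168, at least 5.76-fold lower). TaAffx.92891.1.A1_at, of unknown function, had 32.7, 27.0 and 35.4 in T183, against 692, 446 and 356 in Chris (-3.38 ± 0.25, adjusted p 0.00314, at least 4.22-fold lower). In these the T183 arrays lay below and the Chris arrays above the 55th percentile, without overlap.

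Ta.30728.1.S1_at, whose rice match is a transposon protein, had 69.7, 113 and 151 in T183, against 837, 1211 and 1430 in Chris (-3.23 ± 0.30, adjusted p 0.0127). The 3 other probe sets tested in its cluster changed by -2.35, -1.83 and -0.59 and were not called. Those at -2.35 and -1.83 were lower on each T183 array than on any Chris array, as were 6.33% of all probe sets tested. Ta.14181.1.S1_x_at, of unknown function, had 430, 562 and 583 in T183, against 2863, 2983 and 3061 in Chris, a change of -2.47 ± 0.17 (adjusted p 0.00218). Its cluster holds Ta.14181.2.S1_x_at, which was at -1.04 ± 0.21, without overlap between the lines but not called (adjusted p 0.501).

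A coatomer probe set and an ACC oxidase probe set had the annotated falls nearest the threshold. Coatomer beta prime is part of the coat of vesicles that move between the Golgi and the endoplasmic reticulum, and TaAffx.50700.1.S1_at had 29.5, 64.3 and 36.3 in T183, against 215, 300 and 248 in Chris (-2.22 ± 0.24, adjusted p 0.0372, at least 2.29-fold lower). ACC oxidase makes the hormone ethylene, and Ta.9107.2.S1_at had 225, 235 and 225 in T183, against 574, 815 and 760 in Chris (-1.57 ± 0.18, adjusted p 0.0375). Each lost its call in 5 of the 6 fits that left out 1 array. The other tested probe sets of the ACC oxidase cluster, Ta.9107.2.S1_a_at and Ta.9107.1.S1_x_at, were at -0.87 ± 0.16 and -0.75 ± 0.19. Both were lower without overlap but were not called (adjusted p 0.366 and 0.672). In all, 9 of the 23 lost the call when at least 1 of the arrays was left out: these 2 probe sets, Ta.18686.1.A1_at, Ta.30728.1.S1_at, TaAffx.81279.1.S1_at and 4 of the unannotated falls (TaAffx.54190.1.S1_at, TaAffx.128712.5.A1_s_at, TaAffx.5679.1.S1_at and TaAffx.55720.1.S1_at).

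The 5 remaining falls were at probe sets with no annotation in the tables used, and their changes lay between -3.07 and -1.61. TaAffx.54190.1.S1_at had 22.8, 4.53 and 5.87 in T183, against 217, 127 and 292 in Chris. TaAffx.65101.1.A1_at averaged 9.01 ± 1.65 in T183 and 106 ± 6.05 in Chris (SD, n = 3 each), so that even its brighter line lay close to the 55th percentile and its bound is at least 1.04-fold lower. TaAffx.128712.5.A1_s_at had 60.2, 96.7 and 75.2 in T183, against 440, 316 and 524 in Chris, while 6 other tested probe sets of its cluster lay between -0.23 and 0.75. TaAffx.5679.1.S1_at averaged 21.7 ± 7.72 in T183 and 157 ± 22.8 in Chris (SD, n = 3 each). TaAffx.55720.1.S1_at had 205, 174 and 216 in T183, against 530, 658 and 734 in Chris. At 14 of the 23 probe sets 1 line was dim, with all 3 of its signals under the 55th percentile, T183 at 12 of them and Chris at 2.

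**Figure D3:**
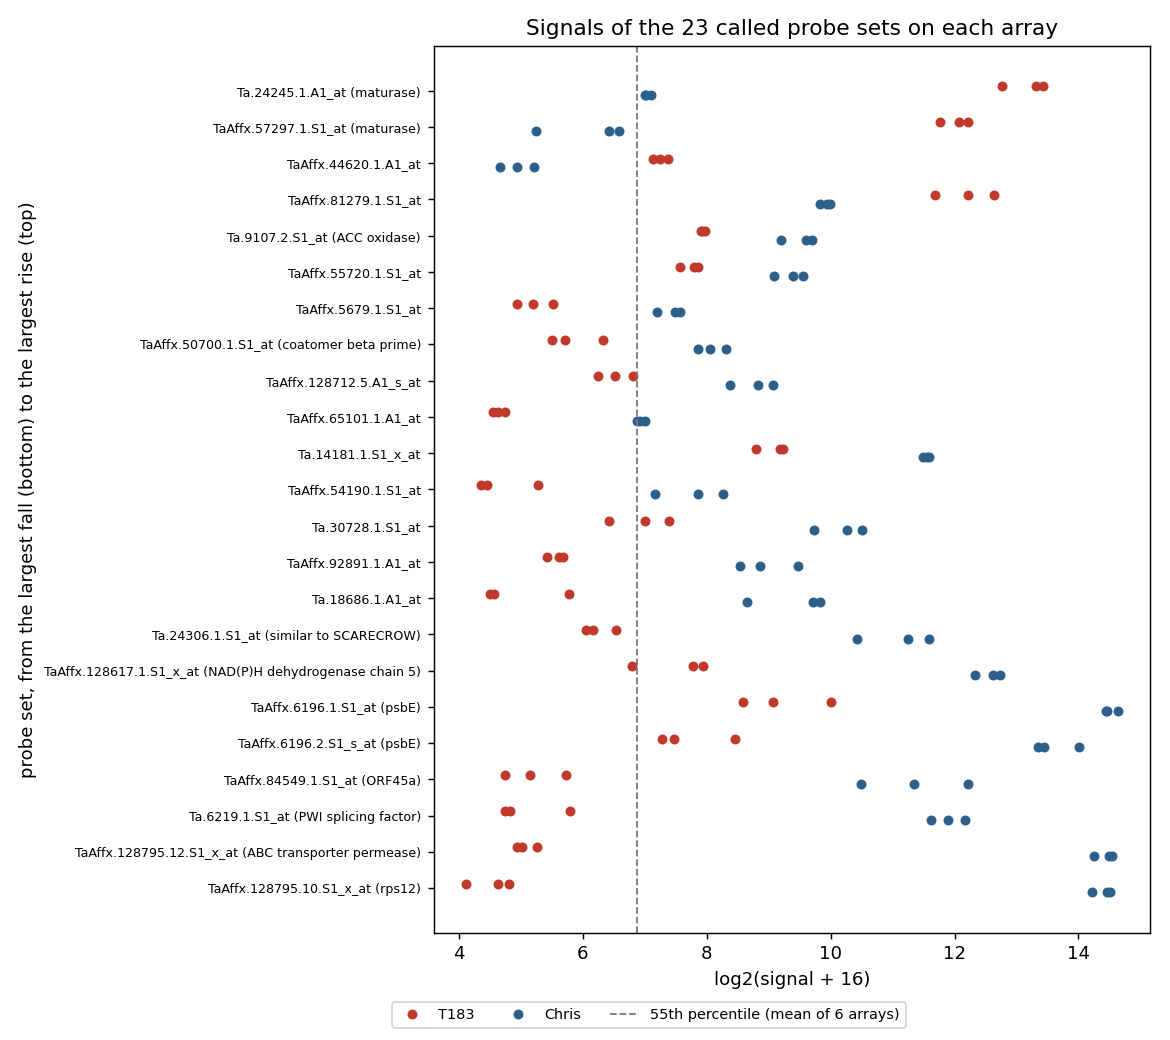
Signals of the 23 called probe sets on the 3 T183 arrays and the 3 Chris arrays (horizontal axis, log2 of the signal with 16 added), ordered from the largest rise at the top to the largest fall at the bottom. The dashed line is the mean 55th percentile of the arrays, and in each row the T183 points do not overlap the Chris points.

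Just inside the limit stood the probe sets at an adjusted p of 0.0372 to 0.0378, and just outside it stood TaAffx.3850.1.A1_at, a putative VAMP-associated protein of vesicle traffic. It had 15.9, 40.2 and 46.9 in T183, against 266, 244 and 188 in Chris (-2.35 ± 0.28, adjusted p 0.0522). It is the 1 probe set of the 11 that the study's list marks for T183 that was not called here. That list was chosen by the study on these samples, and the 10 called are no independent evidence.

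Grouped by compartment, 63 probe sets of the list are placed in the chloroplast, of which 50 were tested. The 5 called were all lower, beside 0.0679% called lower over all probe sets, and the median of the 50 was -0.52 against -0.01 over all tested. These are the probe sets of rps12, the permease, psbE and chain 5 of the NAD(P)H dehydrogenase. Without Chris replicate 3 the same count was 5 and the median -0.29. The list was chosen by the study on these samples, so that this count and this median are no independent evidence. Among plastid genes of the list that were not called, the ribosomal protein genes rpl2, rpl23 and rpl16 (TaAffx.128896.8.A1_at, TaAffx.128896.23.S1_at and TaAffx.128896.1.S1_s_at) were at 0.24 ± 0.23, -0.18 ± 0.27 and -0.23 ± 0.18. TaAffx.128896.2.S1_at shares their cluster but is not in the list. It had 2563, 1619 and 3951 in T183, against 367, 489 and 475 in Chris, and was not called (2.49 ± 0.32, adjusted p 0.0789). For photosystem II, psbM (TaAffx.48564.2.S1_s_at), a small subunit, had 6940, 14558 and 10180 in T183, against 10251, 9631 and 8625 in Chris, and psbX (Ta.20878.1.S1_at), a nuclear-encoded subunit, was at -0.58 ± 0.21 (adjusted p 0.771). The alpha subunit of the plastid-encoded RNA polymerase (TaAffx.129824.3.A1_at) had 458, 360 and 483 in T183, against 896, 1129 and 694 in Chris, without overlap but not called (-1.02 ± 0.22, adjusted p 0.516).

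The mitochondrial group held 22 probe sets, of which 21 were tested, with 2 called higher (both maturases) and 1 lower (ORF45a), beside 0.0143% called higher and 0.0679% called lower over all probe sets. The median of the 21 was 0.26, against -0.01 over all tested. These counts and this median come from the list that the study chose on these samples, and are likewise no independent evidence. For nad6, a mitochondrial subunit of respiratory complex I, TaAffx.87200.1.S1_at had 1155, 744 and 3245 in T183, against 157, 160 and 106 in Chris. The lines did not overlap, but the T183 arrays spread widely and the change of 3.20 ± 0.49 was not called (adjusted p 0.168). The study's text describes this probe set as up-regulated in T183, although its list does not mark it for that line. A probe set of the rye mitochondrial 18S repeat unit, Ta.19309.1.S1_at, had 1964, 2825 and 2090 in T183, against 858, 647 and 826 in Chris (1.53 ± 0.20, adjusted p 0.0937). Subunit 3 of cytochrome c oxidase, the last complex of the respiratory chain, was at 1.12 ± 0.21 (Ta.28701.1.A1_at, adjusted p 0.386) and 0.65 ± 0.19 (TaAffx.114431.1.S1_s_at, adjusted p 0.720), and subunit 1 (Ta.28645.1.S1_at) at -0.03 ± 0.16.

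By function, the class for DNA had 2 of 3 tested probe sets called, both maturases and higher, and photosynthesis had 2 of 12 called, both psbE and lower. RNA had 2 of 30 called lower, rps12 and the PWI splicing factor. The class named transporter had 1 of 2 tested probe sets called lower, the permease. Over all probe sets 0.0143% were called higher and 0.0679% lower, and the classes come from a list chosen by the study on these samples, so that these counts are no independent evidence. The symbols of the platform annotation reached few organelle genes: of 37 probe sets found by plastid symbols, 28 bear the synonym rbcL, 17 were tested, and limma called 0, with 1 at an unadjusted p under 0.05, as 6.26% of all tested had. No probe set was found by a mitochondrial symbol.

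The study's list, searched by word for nuclear genes of light harvesting and of signalling from the plastid to the nucleus, gave no called probe set. Over all probe sets tested 0.0821% were called, so that no call among so few is no result about these genes. In several of them Chris replicate 3 set the size of the change. The probe set of EXECUTER 2, a gene of this signalling, was too dim to be tested. Of 11 LHCII probe sets 5 were tested, with a median change of -1.13, and -0.97 without Chris replicate 3. The brightest in that array, Ta.22984.1.S1_x_at, had 273, 552 and 806 in T183, against 941, 1250 and 6925 in Chris (-1.99 ± 0.74, adjusted p 0.779). APX4 is named as an ascorbate peroxidase, and the study's text describes it as associated with photosystem II. The 3 tested probe sets annotated as APX4 had a median of -2.01, and -0.74 without Chris replicate 3. Ta.488.1.S1_at of this group had 89.8, 37.1 and 171 in T183, against 184, 228 and 3777 in Chris (-2.49 ± 1.08, adjusted p 0.796). The early light-inducible proteins, which bind pigments under strong light, had 3 tested probe sets between 0.67 and 1.10, each with overlap between the lines.

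HEMA1 encodes the first committed enzyme of tetrapyrrole synthesis. The 2 probe sets that the word search found for it, of the same cluster, had a median of -0.65, and -0.22 without Chris replicate 3. A further HEMA1 probe set that the study's text names is not among them. For LOL1, a zinc finger protein of the LSD1 family that regulates cell death in Arabidopsis, Ta.6594.1.S1_at had 36.6, 117 and 126 in T183, against a mean of 308 ± 134 in Chris (SD, n = 3), without overlap but not called (-1.62 ± 0.45, adjusted p 0.710). Ta.6594.1.S1_s_at of the same cluster, described as a zinc finger protein, was at -1.15 ± 0.26 (adjusted p 0.581). FLU, a brake on tetrapyrrole synthesis, had a median of -0.31 over 3 probe sets, and LOX2 and LOX3, lipoxygenases of oxylipin synthesis, had medians of -0.22 and -0.35, with none called. Without Chris replicate 3 the FLU median was -0.00, and the LOX2 and LOX3 medians turned to 0.21 and 0.13.

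**Figure D4:**
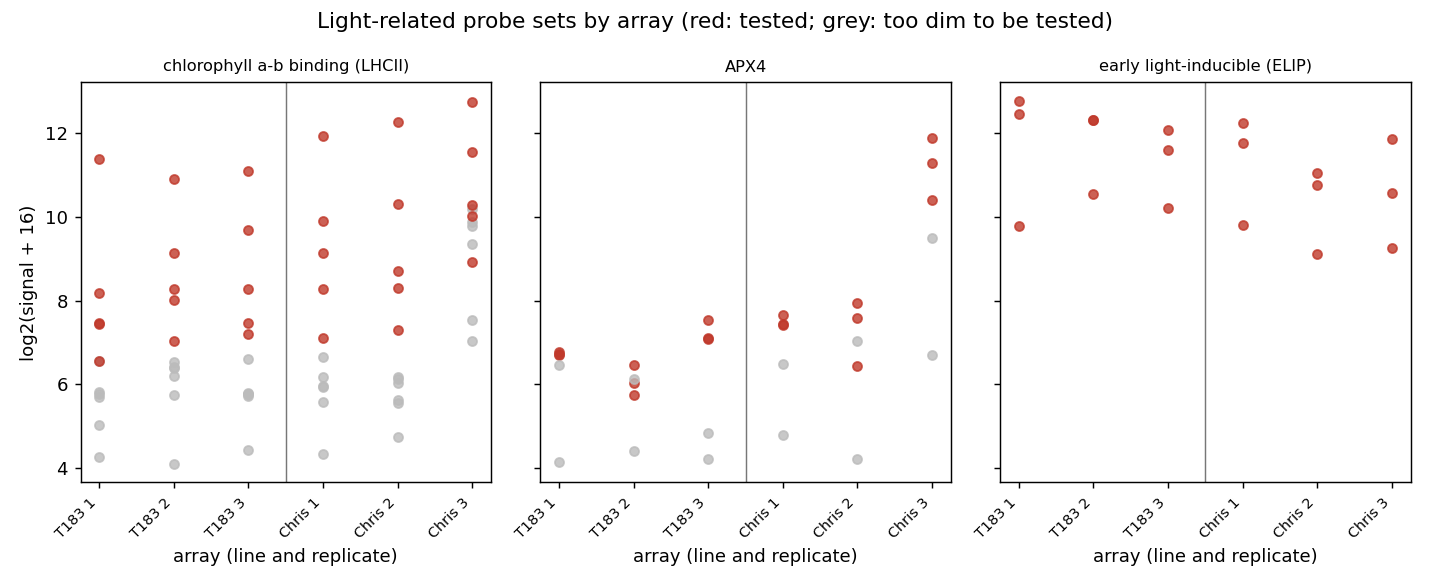
Signals of the LHCII, APX4 and early light-inducible probe sets of the study's list on each array (vertical axis, log2 of the signal with 16 added; horizontal axis, the 3 T183 arrays left of the 3 Chris arrays). Red points were tested and grey ones were too dim to be tested. In the LHCII and APX4 panels most points of Chris 3 lie far above those of Chris 1 and Chris 2.

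The same 23 probe sets were read in the other alloplasmic lines in 1 model of the 5 lines. In that model 3 of them were no longer called for T183 against Chris, TaAffx.44620.1.A1_at (adjusted p 0.0663), TaAffx.55720.1.S1_at (adjusted p 0.105) and TaAffx.5679.1.S1_at (adjusted p 0.351). T183 and T195 are set against the same Chris arrays, so an error in Chris enters both changes, and the difference between the lines themselves was tested in place of a comparison of the calls. Of the 23, 6 differed between T183 and T195 (0.111% of all probe sets did), and since the 23 were chosen by their change in T183, nothing is read from that share. The rps12 probe set changed by -9.87 ± 0.20 in T183 and by -1.24 ± 0.20 in T195, a difference of -8.63 (adjusted p 7.44e-12). Its T195 signals were 7084, 10617 and 9926, and with the dim T183 signals at the 55th percentile it was at least 77.4-fold lower in T183 than in T195. The permease probe set was at -9.36 ± 0.17 in T183 and -1.92 ± 0.17 in T195, a difference of -7.44 (adjusted p 7.44e-12) and at least 49.7-fold lower in T183 than in T195. TaAffx.92891.1.A1_at (-3.37), TaAffx.54190.1.S1_at (-2.49), the coatomer probe set (-2.45) and the unannotated TaAffx.81279.1.S1_at (2.05) also differed from T195, in which none of these 4 was called against Chris. The first 3 of them were dim in T183, and their bounds are at least 4.18-fold, 1.24-fold and 2.69-fold lower than in T195.

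The psbE probe set TaAffx.6196.2.S1_s_at changed by -5.87 ± 0.34 in T183, -5.61 ± 0.34 in T195 and -4.93 ± 0.34 in TH237. No difference of T183 from either line passed the test at the psbE and NAD(P)H dehydrogenase probe sets, and the largest in size was -0.94 ± 0.48 (adjusted p 0.370). The maturase probe set Ta.24245.1.A1_at changed by 6.13 ± 0.43 in T183, 4.88 ± 0.43 in T195 and 2.71 ± 0.43 in TH237. Its change in T183 exceeded that in TH237 by 3.42 ± 0.60 (adjusted p 0.0125), while its difference from T195 of 1.24 ± 0.43 did not pass (adjusted p 0.421). TaAffx.57297.1.S1_at exceeded TH237 by 3.34 ± 0.59 (adjusted p 0.0125) and was 1.64 ± 0.42 above T195 (adjusted p 0.230).

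In all, 16 of the 23 changes differed from the change in TH237, beside 1.92% of all probe sets, a share that the choice of the 23 also bears on. At 4 of the 16, T20 lay below the 55th percentile on all 3 arrays. For 3 of these (TaAffx.65101.1.A1_at, TaAffx.54190.1.S1_at and the coatomer probe set) T183 fell, and a fall in TH237 could not have been measured. TH237 has another nuclear background, so that its cytoplasm and its nucleus cannot be told apart in this difference. The PWI splicing factor probe set was at -6.78 ± 0.50 in T183, -6.57 ± 0.50 in T195 and -0.39 ± 0.50 in TH237. It had 51.3, 150 and 26.5 in TH237, against signals between 73.8 and 114 in T20, with 1 of 3 arrays of each line above the 55th percentile and both lines far below Chris, so that a large fall could not have been measured. The probe sets Ta.14181.1.S1_x_at, Ta.24306.1.S1_at, Ta.18686.1.A1_at and Ta.30728.1.S1_at fell in both lines with the Chris nucleus and were within 2-fold in TH237. Their differences between T183 and T195 were 0.20, 0.96, -0.03 and 0.13, with none past the test. At Ta.24306.1.S1_at and Ta.18686.1.A1_at every T183 and T195 signal lay below the 55th percentile, so that a difference between these lines could not have been measured. The same holds for the PWI splicing factor probe set.

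**Figure D5:**
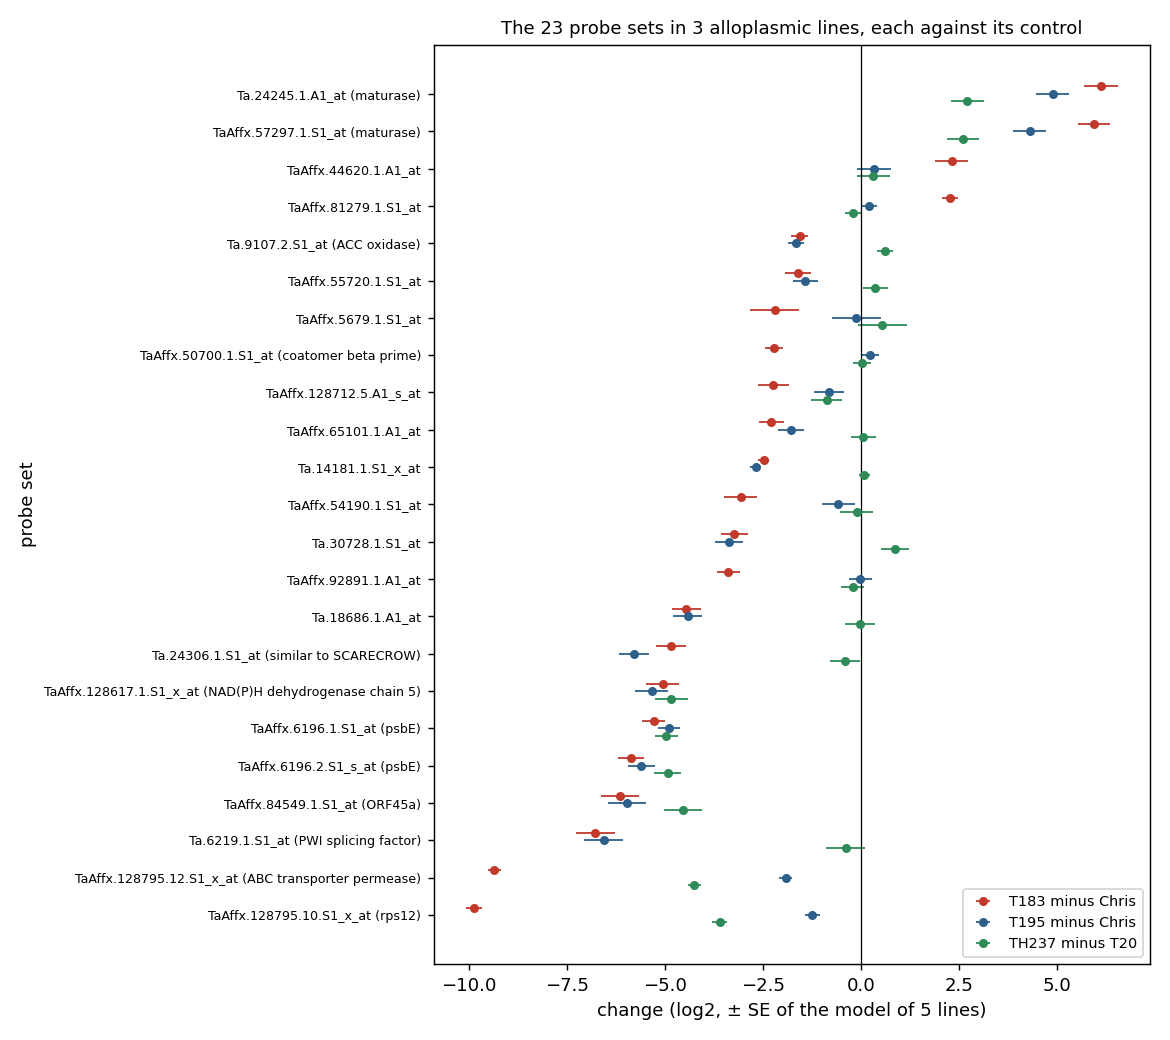
Change of the 23 probe sets in T183 and T195, each minus Chris, and in TH237 minus T20 (horizontal axis, log2 with the standard error of the model of 5 lines). The rps12 and permease probe sets lie far lower in T183 than in T195 and TH237, and both maturase probe sets lie above 0 in all 3 lines.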

How the data were processed

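The values are the deposited intensities, which the authors made with MAS 5.0 as 1 linear signal per probe set and array, each array scaled to a 2% trimmed mean near 500. The version is not given in the sources used here. The methods name RMA for the study's own tests, and those values were not used. The table holds 61290 probe sets, of which 111 are controls. Here 16 was added before log2, and probe sets above the 55th percentile on at least 3 of 6 arrays were kept. R 4.3.3 and limma 3.58.1 fitted T183 and Chris alone, with 3 arrays each and a prior SD of 0.24. A model of 5 lines on the 15 arrays gave differences from other lines. For a bound, dim signals were replaced by their array's 55th percentile. The median signal of an array was 70.1 to 85.0, and precision is limited by the number of arrays. The methods' t-test, other scaling, filters and added values, a replicate block and removal of each array were alternatives. The code was tested on simulated data. Gene names and compartments come from the study's supplementary list of 560 probe sets, whose values and fold changes were not used, and 1273 probe sets carry a platform symbol. Probe sets were named where they were called, where the list marks them for T183, where they share a cluster with these, or as the up to 4 most changed members of a list. The members and lists were chosen with earlier results of these data known.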

Additional observations from a re-analysis of the deposited data

Results flagged for a closer look

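A difference between lines was tested at each of the 23 called probe sets, and those that passed are given as values. T183 minus T195 was 2.05 at TaAffx.81279.1.S1_at, -2.45 at TaAffx.50700.1.S1_at, -2.49 at TaAffx.54190.1.S1_at and -3.37 at TaAffx.92891.1.A1_at. It was -7.44 at TaAffx.128795.12.S1_x_at and -8.63 at TaAffx.128795.10.S1_x_at.

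The change in T183 minus the change in TH237, which has another nuclear background, passed at 16 probe sets. It was 3.42 at Ta.24245.1.A1_at, 3.34 at TaAffx.57297.1.S1_at and 2.47 at TaAffx.81279.1.S1_at. Among the negative ones it was -2.18 at Ta.9107.2.S1_at, -1.98 at TaAffx.55720.1.S1_at, -2.25 at TaAffx.50700.1.S1_at, -2.35 at TaAffx.65101.1.A1_at and -2.56 at Ta.14181.1.S1_x_at. It was -2.96 at TaAffx.54190.1.S1_at, -4.09 at Ta.30728.1.S1_at, -3.17 at TaAffx.92891.1.A1_at and -4.42 at Ta.18686.1.A1_at. The rest were -4.42 at Ta.24306.1.S1_at, -6.39 at Ta.6219.1.S1_at, -5.10 at TaAffx.128795.12.S1_x_at and -6.27 at TaAffx.128795.10.S1_x_at. At the 4 probe sets TaAffx.57297.1.S1_at, TaAffx.50700.1.S1_at, TaAffx.65101.1.A1_at and TaAffx.54190.1.S1_at, T20 lay below the 55th percentile on all 3 arrays. For Ta.6219.1.S1_at and Ta.24245.1.A1_at it did on 2 of 3, and the sizes at both maturase probe sets depend on the 16 added. Because T183 was dim at the permease and rps12 probe sets (TaAffx.128795.12.S1_x_at and TaAffx.128795.10.S1_x_at), the sizes there depend on the 16 added. With dim signals at the 55th percentile the change in T183 was at least 9.83-fold and 15.1-fold lower than that in TH237.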

How the results depend on the processing

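Of the 23 probe sets, 12 were called in every limma fit that kept the arrays unpaired, 14 when any single array was left out, and none turned its direction. Leaving out each array gave counts of 15 to 29 called, the lowest without Chris replicate 3, and 5 chloroplast and 3 mitochondrial calls each time. With no filter the count was 13, because 61179 probe sets then share the adjustment. The methods' Welch t-test called 1 after adjustment over all (1 chloroplast, 0 mitochondrial, 1 in the functional classes and 0 by words), and 22 where the 2-fold limit came first. The 5-line model called 33, with 5 mitochondrial probe sets. Under it nad6 (TaAffx.87200.1.S1_at) was called, and under it, median centring and the block so was rpl32 (TaAffx.128617.4.S1_at). Other scaling, added values and filters called 20 to 28. Replicate numbers did not pair the arrays (correlations of deviations 0.04, -0.24 and 0.00), and the fit with the replicate block called 19, of which 17 were among the 23. The 6 differences from T195 were 5 to 8 and the 16 from TH237 were 13 to 18 under all alternatives, including leaving out each array (5 and 14 to 17), which was chosen after seeing the data. Signals near background limit the size of 14 changes.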
